A study of Mus musculus with 80 samples.

Results

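The core and naive pluripotency factors considered here were 10 genes: Pou5f1, Sox2, Nanog, Klf2, Klf4, Tbx3, Esrrb, Zfp42, Prdm14 and Tcl1. They were picked by symbol from the 24508 genes of 4 RNA-seq tables and 1 PRO-seq table, and each was found in all 5. The cells were mouse embryonic stem cells of 1 C57Bl/6 line, Mll2F/F:CreERT2/+, in which both Mll2 (Kmt2b) alleles are floxed and Cre recombinase answers to 4-hydroxytamoxifen. The wild-type (WT) libraries came from cells given carrier, and the knockout (KO) libraries from the same line given 4-hydroxytamoxifen for 96 h, so that loss of Mll2 and exposure to the drug cannot be told apart. RNA-seq covered the cells at day 0 and embryoid bodies grown from them in hanging drops for 3, 6 and 9 days, and PRO-seq, a run-on assay of RNA that polymerase is in the act of making, covered the stem cells. Every genotype and day had 2 libraries, 16 of RNA and 4 of PRO-seq, out of 80 samples in a series that also holds chromatin and genome-folding assays. The stem cells grew without feeder cells in serum with LIF, the cytokine that holds mouse stem cells undifferentiated.

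Pluripotency, the capacity of a cell to form every tissue of the embryo, rests on a small set of transcription factors that bind each other's regulatory DNA and keep each other active. Pou5f1 (Oct4) and Sox2 bind as a pair to a composite DNA element, and Nanog stabilises the state they set. Klf2, Klf4, Tbx3, Esrrb, Zfp42 (Rex1), Prdm14 and Tcl1 belong to the naive layer of the network, which is typical of the preimplantation epiblast and is shut down first as cells leave that state, while Pou5f1 and Sox2 stay on in the formative and primed epiblast. Mll2 is a methyltransferase that places trimethylation on lysine 4 of histone H3, mostly at the promoters of developmental genes that also carry the repressive mark of Polycomb.

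Recovered read totals on genes ran from 29018977 to 34476624 in the RNA libraries and from 16328481 to 20048161 in the PRO-seq libraries, and no 2 replicates agreed within counting noise. Kmt2b, the targeted gene, was read over its whole length, so reads from outside the deleted part count as well. At day 3 its RNA level was 14.9 and 17.1 FPKM (fragments per kilobase of gene, scaled to library depth) in WT and 6.67 and 7.27 FPKM in KO, and it was lower in KO at day 6 too (adjusted p = 0.00762). Day 9 gave 15.5 and 13.3 FPKM in WT against 10.8 and 6.94 FPKM in KO (adjusted p = 0.106). At day 0 it was 9.44 and 11.8 FPKM in WT and 9.46 and 9.49 FPKM in the libraries labelled KO, and PRO-seq gave 11.9 and 13.9 FPKM against 13.8 and 15.8 FPKM. Kmt2b reads in the stem cell libraries labelled KO thus overlapped those of WT, and what follows for day 0 and PRO-seq rests on their labels.

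RefSeq promoter windows (build GRCm38.p6, 250 bases before to 50 bases from the start site) were at hand for 8 of the 10 members, in 11 windows. The Nanog, Sox2 and Zfp42 windows are shown because they hold a match to the octamer core, the part of the composite element that the Pou5f1 protein recognises, and the Pou5f1 window because its RNA, unlike most, passed no test between the genotypes. Sequences run 5′ to 3′ in the direction of the gene, and capitals mark motif matches on either strand.
Nanog, chr6:122707239-122707538, plus strand: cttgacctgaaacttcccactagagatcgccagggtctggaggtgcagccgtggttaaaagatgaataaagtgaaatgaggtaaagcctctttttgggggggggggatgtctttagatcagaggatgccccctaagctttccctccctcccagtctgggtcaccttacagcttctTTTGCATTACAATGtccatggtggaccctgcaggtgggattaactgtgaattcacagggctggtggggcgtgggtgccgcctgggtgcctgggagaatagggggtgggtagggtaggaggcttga
Sox2, chr3:34649745-34650044, plus strand: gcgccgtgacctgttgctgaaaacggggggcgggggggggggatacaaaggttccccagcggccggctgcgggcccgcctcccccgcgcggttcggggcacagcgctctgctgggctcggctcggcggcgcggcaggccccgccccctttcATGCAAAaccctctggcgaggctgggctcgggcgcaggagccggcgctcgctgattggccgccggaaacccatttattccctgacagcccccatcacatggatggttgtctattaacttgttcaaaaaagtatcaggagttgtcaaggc
Zfp42, chr8:43306960-43307259, minus strand: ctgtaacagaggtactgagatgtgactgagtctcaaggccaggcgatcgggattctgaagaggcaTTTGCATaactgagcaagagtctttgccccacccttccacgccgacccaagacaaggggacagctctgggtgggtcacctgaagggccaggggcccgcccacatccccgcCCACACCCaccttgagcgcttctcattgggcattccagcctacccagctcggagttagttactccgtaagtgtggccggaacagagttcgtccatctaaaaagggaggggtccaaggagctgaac
Pou5f1, chr17:35505782-35506081, plus strand: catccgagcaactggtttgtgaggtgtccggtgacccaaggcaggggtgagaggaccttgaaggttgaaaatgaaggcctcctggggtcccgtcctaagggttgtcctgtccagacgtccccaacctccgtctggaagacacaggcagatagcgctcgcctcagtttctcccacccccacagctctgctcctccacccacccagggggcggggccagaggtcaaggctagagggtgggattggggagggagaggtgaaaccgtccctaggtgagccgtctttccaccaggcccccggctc

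The composite motif, CATTGT and ATGCAAA with 1 base of any kind between them, was matched in 2 of 32851 RefSeq windows (0.00609%), and both were Nanog windows, drawn from start sites a short way apart on the same stretch. In the Nanog window above the match lies 75 to 62 bases before the start site, on the strand opposite to the gene, as TTTGCATTACAATG, and its first bases are also a match to the octamer core ATGCAAA. Octamer core matches occurred in 4.63% of all windows and in those of 3 members: Nanog, Sox2 (99 to 93 bases before the start site, on the gene's strand) and Zfp42 (185 to 179 bases before it, on the opposite strand). The Klf motif GGGTGTGG, found in 3.56% of windows, was matched only in the Zfp42 window among the members, 75 to 68 bases before the start site. No member window held the Esrrb motif TCAAGGTCA, which 0.423% of all windows hold. Only these exact letters were searched, so other forms of each motif were not counted and the shares depend on the letters chosen. These are matches of letters in short windows and say nothing of binding.

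In WT stem cells all 10 genes were expressed, as the label of the cells implies. Pou5f1 had the highest RNA level, with 1439 and 1148 FPKM, and ranked 68th among the 24508 genes. Nanog followed with 566 and 458 FPKM and Zfp42 with 349 and 282 FPKM. Esrrb, a nuclear receptor, had 128 and 167 FPKM, and Sox2 had 154 and 138 FPKM. Those Esrrb and Sox2 ranges overlapped, as did those of Klf4 and Klf2, so neither pair can be ordered, while every other step in the order was clear of the replicate spread. Tcl1, a coactivator of Akt kinase, had 119 and 109.7 FPKM. Tbx3, a T-box factor, had 36.2 and 24.1 FPKM, and Prdm14, a repressor of differentiation genes, was lowest with 22.6 and 19.2 FPKM.

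In WT embryoid bodies the members differed in how much of their day 0 level they held at day 9, from 7.77% for Klf4 to 99.8% for Klf2. The tables were scaled separately, so levels between days are a description with no test. The median of 7 housekeeping genes stood at 105% of its day 0 level in WT and 109% in KO at day 9. Single housekeeping genes ranged from 79.5% to 147% in WT and from 86.7% to 139% in KO. Pou5f1 went from a mean of 1293 FPKM at day 0 to 690.0 FPKM at day 9, or 53.3%. Sox2 ended at 89.1% and Klf2 at 99.8% of their day 0 means, with Sox2 highest at day 3 in both genotypes. Klf4, a zinc finger factor, behaved in the opposite way: its WT level dropped to 12.1% of day 0 by day 3, from 108 and 78.9 FPKM to 9.98 and 12.5 FPKM. Tbx3 went down more slowly, to 54.5% at day 3 and 16.7% at day 9. The other 5 genes ended between 31.6% (Tcl1) and 69.9% (Prdm14). In whole embryoid bodies, fewer cells of a type and less RNA per cell cannot be told apart.

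**Figure D1:**
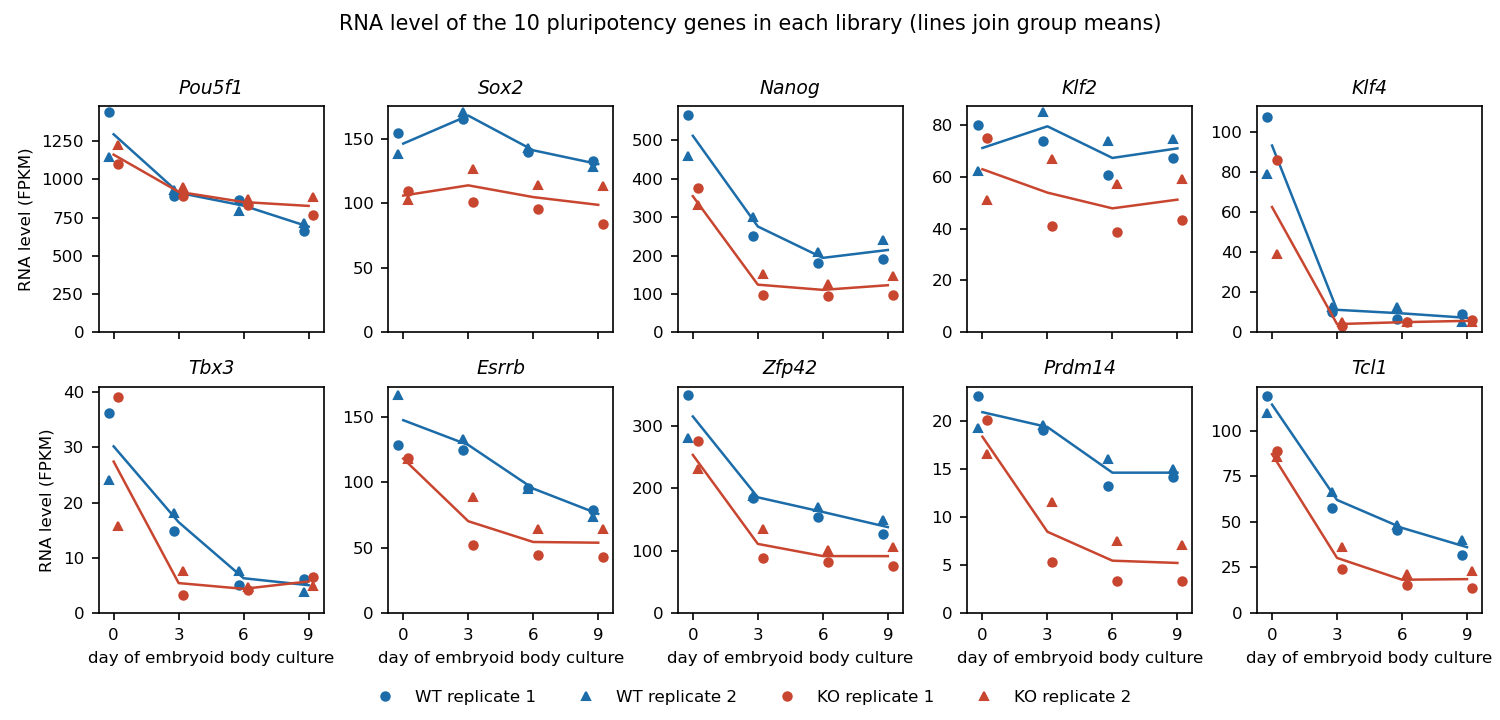
RNA level (FPKM, linear axis from 0) of the 10 genes against day of embryoid body culture. Circles and triangles are the libraries of replicate 1 and replicate 2, blue for WT and red for KO, and lines join the group means (2 libraries each). Pou5f1 runs together in both genotypes until day 6, while at days 3 and 6 both KO libraries of the other 9 genes lie below both WT libraries.

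At day 0, before differentiation, no member passed the test between the libraries labelled KO and WT. The limma test called 0 of 10 members, against 3.32% of the 11318 genes tested, and 3 had an unadjusted p under 0.05; limma's voom on recovered reads also called 0. All 10 fold changes were nonetheless below 0, from -0.66 to -0.15 on the log2(FPKM + 1) scale, with a median of -0.31 where that of all genes was 0.01. Nanog had 566 and 458 FPKM in WT and 377 and 333 FPKM in the libraries labelled KO, a difference of -0.52 ± 0.18 (SE, adjusted p = 0.204). Sox2, with 154 and 138 FPKM against 109 and 102 FPKM, differed by -0.46 ± 0.15 (adjusted p = 0.159). Both labelled KO libraries lay below both WT libraries for these genes and for Esrrb, Zfp42 and Tcl1, 5 of 10 members, a pattern shown by 20.5% of all genes tested. Klf4 was spread widely, at 108 and 78.9 FPKM in WT and 86 and 39.2 FPKM in the labelled KO, and Tbx3 had its highest and its lowest day 0 value, 39.1 and 15.7 FPKM, in the 2 libraries labelled KO. Without KO replicate 1, Klf4 (adjusted p = 0.00121) and Tbx3 (adjusted p = 0.0362) were called lower.

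Day 3 embryoid bodies gave the most calls of any table: 8 of 10 members were lower in KO and none was higher. Of the 11088 genes tested, 21.2% were called, and 11.5% were called lower. The median of the members was -0.97, where that of all genes was -0.01. In 9 of 10 members both KO libraries lay below both WT libraries, as they did in 34.9% of all genes. Pou5f1 was the exception.

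Within the core trio the response was uneven. Pou5f1 had 894 and 929.7 FPKM in WT and 888 and 948 FPKM in KO, overlapping ranges with a difference of 0.01 ± 0.07 (95% interval -0.16 to 0.18, adjusted p = 0.935). Its partner Sox2 fell from 165 and 171 FPKM to 101 and 126 FPKM, a difference of -0.56 ± 0.11 (adjusted p = 0.0233), which left KO at 67.8% of WT. Nanog, a homeodomain factor, fell further, from 250.2 and 301 FPKM to 96.2 and 152 FPKM (-1.17 ± 0.21, adjusted p = 0.0198). The KO mean of Nanog was 45.1% of the WT mean, and both KO libraries were far below the WT pair.

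Among the naive factors the largest decreases were those of Tbx3 and Klf4, whose WT levels were also the lowest at day 9 relative to day 0. Tbx3 read 14.8 and 18.1 FPKM in WT and 3.33 and 7.53 FPKM in KO, 3.03 times lower on the means (-1.52 ± 0.31, adjusted p = 0.0251). Klf4 read 9.98 and 12.5 FPKM against 3.22 and 5.03 FPKM (-1.27 ± 0.19, adjusted p = 0.0132). Prdm14, still at 92.6% of its day 0 level in WT, had 19.1 and 19.6 FPKM there and 5.36 and 11.6 FPKM in KO (-1.19 ± 0.30, adjusted p = 0.041). Its KO replicates were a factor of about 2 apart, yet both sat well under the tight WT pair. Tcl1 fell from 57.7 and 66.3 FPKM to 24.4 and 36 FPKM (-1.03 ± 0.18, adjusted p = 0.0178).

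Esrrb and Zfp42 completed the called set. Esrrb had 124 and 133 FPKM in WT and 51.6 and 88.7 FPKM in KO (-0.91 ± 0.23, adjusted p = 0.0434). Zfp42, a zinc finger protein used as a marker of the naive state, had 184 and 187 FPKM and 87.8 and 134 FPKM (-0.77 ± 0.19, adjusted p = 0.0383). Klf2, with 73.9 and 84.9 FPKM against 41 and 66.6 FPKM, did not pass (-0.59 ± 0.22, adjusted p = 0.103), although its groups did not overlap. KO replicate 1 was below KO replicate 2 in 10 of 10 members at days 3 and 6. These day 3 calls need both WT libraries: without WT replicate 1 or without WT replicate 2, 0 of 10 members passed (all genes called fell from 2356 to 247 and 134), and with no filter on low values 0 of 10 did (959 of all genes), with all 8 differences still negative.

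**Figure D2:**
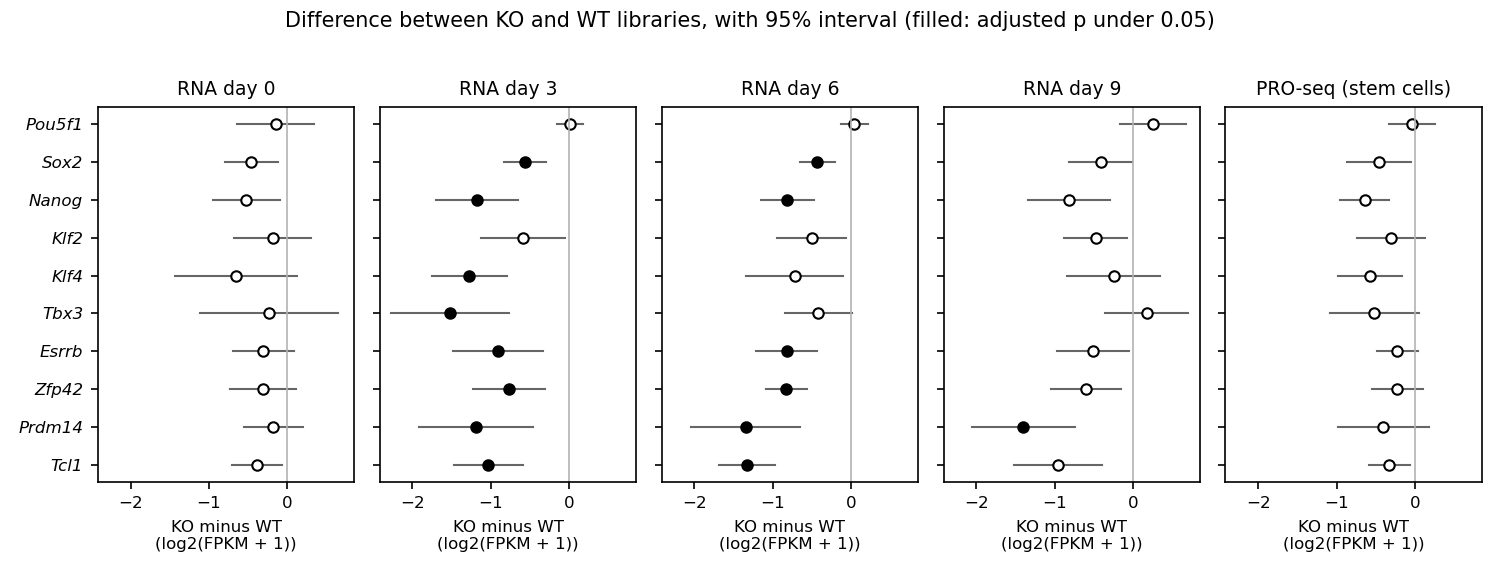
KO minus WT on the log2(FPKM + 1) scale for each of the 10 genes (rows), with the 95% interval from limma as a line, in the 4 RNA tables and in PRO-seq (panels). Filled points have an adjusted p under 0.05: 8 at day 3, 6 at day 6, 1 at day 9 and none at day 0 or in PRO-seq, and Pou5f1 lies between -0.15 and 0.04 in every panel but day 9.

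At day 6, 6 of 10 members were lower in KO and none was higher, with the largest differences in Prdm14 and Tcl1. Among all 11184 genes tested, 13.3% were called, 7.92% lower. Tcl1 had 45.4 and 48 FPKM in WT and 15.2 and 21.4 FPKM in KO (-1.33 ± 0.15, adjusted p = 0.00569), or 39.1% of WT. Prdm14 had 13.2 and 16.1 FPKM against 3.39 and 7.53 FPKM (-1.35 ± 0.29, adjusted p = 0.0321). In both genes the KO pair lay well below the WT pair, although the KO libraries of Prdm14 were far apart.

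Zfp42 (154 and 170.0 FPKM in WT, 82.2 and 101 FPKM in KO), Esrrb (95.4 and 94.8 against 44.1 and 64.5 FPKM) and Nanog (179.9 and 208 against 94.8 and 126 FPKM) differed by -0.83, -0.82 and -0.82, with adjusted p of 0.00827, 0.026 and 0.0181. Sox2 differed by -0.43 ± 0.09 (adjusted p = 0.0333), from 139 and 143 FPKM to 95.5 and 114 FPKM, a call lost with the spread pooled over the 16 RNA libraries (adjusted p = 0.0739). All 4 showed separate groups. Klf2 (-0.50), Klf4 (-0.72) and Tbx3 (-0.42) did not pass, with adjusted p between 0.111 and 0.163, but in each the KO libraries were below the WT ones, as they were for 9 of 10 members and 30.7% of all genes. Klf4 read 6.42 and 12.5 FPKM in WT, a gap wider than that between its KO libraries at 5 and 5.15 FPKM. Pou5f1 had 864 and 791 FPKM against 830.2 and 872 FPKM (0.04 ± 0.07, adjusted p = 0.735). Without WT replicate 2 or with no filter 0 of 10 members passed, and without WT replicate 1 only Klf4 and Tcl1 did.

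At day 9 Prdm14 alone was called, with 14.2 and 15 FPKM in WT and 3.32 and 7.12 FPKM in KO (-1.40 ± 0.27, adjusted p = 0.0409), 35.7% of WT. Day 9 calls made up 5.46% of 11420 genes (3.52% lower), and 7 members had an unadjusted p under 0.05. The difference of Tcl1 was -0.95 ± 0.23 (adjusted p = 0.0668), with 32.1 and 40.1 FPKM against 13.9 and 23.3 FPKM. Nanog had 189.8 and 239 FPKM against 98.5 and 147 FPKM (-0.82 ± 0.22, adjusted p = 0.0791). In 7 members the KO libraries lay below the WT libraries (26.3% of all genes did so).

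Pou5f1 went the other way at day 9: WT gave 663 and 717 FPKM and KO gave 768 and 884 FPKM, with KO above WT in both libraries (as for 30.6% of all genes) and a difference of 0.26 ± 0.18 (adjusted p = 0.408). Klf4, at 9.38 and 5.13 FPKM in WT and 6.31 and 5.17 FPKM in KO, and Tbx3, at 6.25 and 3.83 against 6.53 and 4.93 FPKM, overlapped. The Prdm14 call was lost without WT replicate 2 (adjusted p = 0.0838) and with no filter (adjusted p = 0.131), whereas without KO replicate 2 the calls rose to 7, and with every library scaled to the same total FPKM they rose to 5 (Nanog, Klf2, Zfp42, Prdm14 and Tcl1).

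Whether the KO effect itself changed between days was tested in 1 model of the 16 RNA libraries. For day 3 against day 0 the limma test called 0 of 10 members (1.34% of 11368 genes, 1 member with an unadjusted p under 0.05, 0 members by voom). The largest differences were those of Tbx3, -1.28 ± 0.55 (adjusted p = 0.315), and Prdm14, -1.01 ± 0.49 (adjusted p = 0.386). Nanog and Tcl1 each differed by -0.65, with adjusted p of 0.414 and 0.389. Day 6 against day 0 also called 0 members (1.92% of genes, 2 members unadjusted), with Tcl1 at -0.94 ± 0.32 (adjusted p = 0.163) and Prdm14 at -1.17 ± 0.49 (adjusted p = 0.279). For day 9 against day 0 the count was again 0 (2.01% of genes, 2 members unadjusted), with Prdm14 at -1.22 ± 0.49 (adjusted p = 0.236). Between days 3 and 6 and between days 6 and 9, limma called 0 members and 0% of genes, and no member had an unadjusted p under 0.05. A replicate block in the same model called Nanog (adjusted p = 0.0481) and Tbx3 (adjusted p = 0.0325) for day 3 against day 0 and Tcl1 (adjusted p = 0.0194) for day 6 against day 0. For the other members, a difference of the KO effect from day 0 to day 3 passed neither fit.

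PRO-seq compared nascent transcription between the stem cells labelled KO and WT, where no member had passed the test on RNA. In these libraries limma called 0 of 10 members (1.5% of 14535 genes), 4 had an unadjusted p under 0.05, and all 10 differences were below 0, with a median of -0.37 beside 0.01 for all genes. Nanog had 116 and 101 FPKM in WT and 70.9 and 67.2 FPKM in the libraries labelled KO (-0.64 ± 0.13, adjusted p = 0.0726), the lowest adjusted p among the 10. Klf4, with 57.6 and 63 against 34.1 and 47.1 FPKM, differed by -0.57 ± 0.17 (adjusted p = 0.162). Sox2 had 219 and 258 against 158 and 189.7 FPKM (-0.46 ± 0.17, adjusted p = 0.246). In 7 of 10 members both libraries labelled KO were below both WT libraries, where 22.3% of all genes were. Pou5f1 overlapped, at 55.3 and 56.7 against 50.7 and 58.9 FPKM. On recovered reads, limma's voom called 2 members lower, Nanog (adjusted p = 0.00731) and Klf4 (adjusted p = 0.0353).

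**Figure D3:**
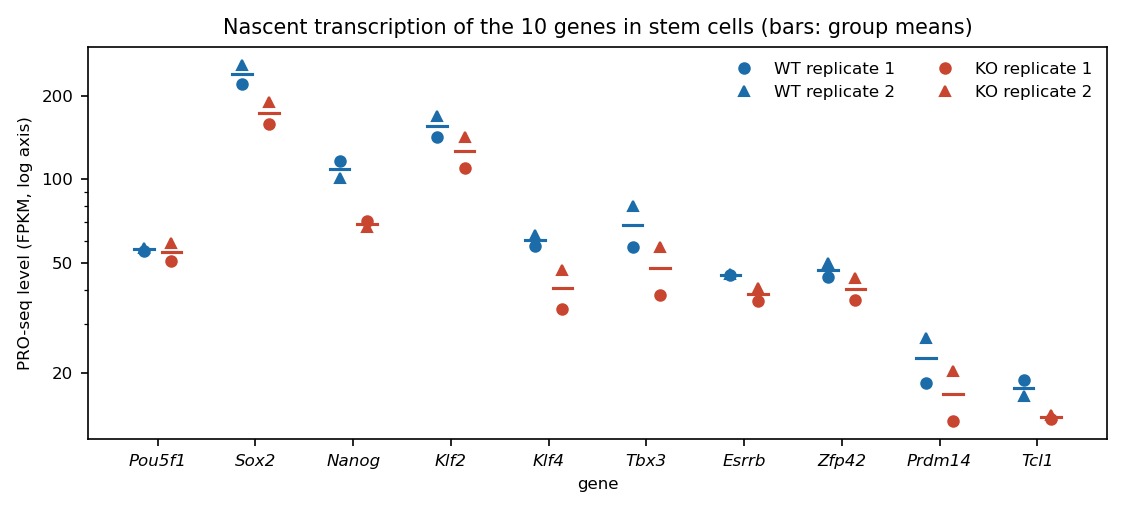
PRO-seq level (FPKM, log axis) of the 10 genes in the stem cell libraries, circles for replicate 1 and triangles for replicate 2, with WT in blue and the libraries labelled KO in red; short bars are group means of 2 libraries. Sox2 is highest and Tcl1 lowest, and Nanog shows the largest fold between the groups.

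The order of the genes differed between nascent and total RNA. By PRO-seq level in WT, Sox2 came first with 219 and 258 FPKM, followed by Klf2 with 142 and 169.5 FPKM, and both were above Pou5f1, which ranked 6th of the 10. The ratio of the mean RNA level at day 0 to the mean PRO-seq level was 23.1 for Pou5f1, 6.68 for Zfp42, 6.45 for Tcl1 and 4.72 for Nanog. It was 0.612 for Sox2, 0.456 for Klf2 and 0.441 for Tbx3, all genes whose polymerase signal was high for the RNA they held. In the libraries labelled KO the ratios were close, for example 21.2 for Pou5f1 and 5.14 for Nanog. Both tables divide by the same gene length, 1443 bases for Pou5f1 and 4621 for Esrrb, and whether reads in introns were counted was not given, so the ratio orders genes only loosely. Pou5f1-rs4, a listed copy of Pou5f1, had 15 to 18.8 FPKM of RNA at day 0 and at most 0.0562 FPKM in PRO-seq; how reads that fit several places were counted was not given, so Pou5f1 and its copies, and Nanog, which also has copies, are uncertain to that extent.

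Across the 16 RNA libraries most members moved together, as a description in which day and genotype are shared by all genes. Pearson's r of log2(FPKM + 1) was 0.99 between Zfp42 and Tcl1, 0.98 between Nanog and Zfp42, 0.95 between Esrrb and Tcl1 and 0.94 between Prdm14 and Esrrb. Klf4 and Tbx3, the pair with the lowest WT levels at day 9 relative to day 0, were nearest to each other (0.93). Sox2 was nearest to Klf2 (0.84), Klf2 to Prdm14 (0.86), and Pou5f1 to Klf4 (0.79). The lowest value was that between the partners Pou5f1 and Sox2, 0.16. Over the 4 days the WT means of Pou5f1 spanned 690.0 to 1293 FPKM and those of Sox2 only 130.2 to 168 FPKM.

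**Figure D4:**
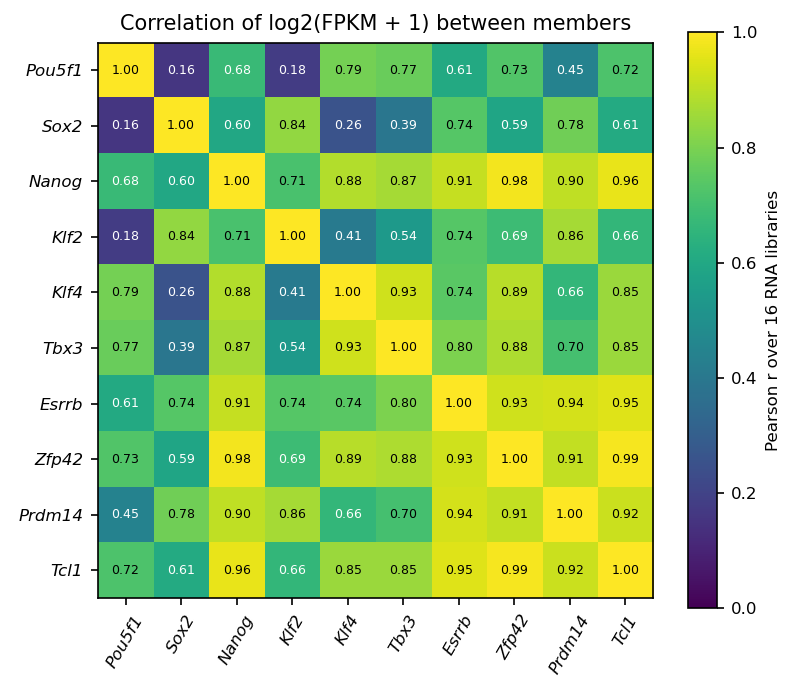
Pearson's r between each pair of the 10 genes over the 16 RNA libraries, on log2(FPKM + 1), with colour from 0 (dark) to 1 (light) and the value in each cell. Nanog, Esrrb, Zfp42, Prdm14 and Tcl1 form a block with every r at least 0.90 after rounding, while Sox2 and Klf2 are far from Pou5f1 (0.16 and 0.18).

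Of 11368 genes, the 5 outside the set whose profile was nearest to the members' scaled average were Bre (r = 0.97), Dppa5a (0.97), Wdr5 (0.97), Gm6083 (0.97) and Gm13580 (0.97). Wdr5, a subunit shared by the Mll family complexes, went from 132 FPKM in WT at day 0 to 106.6 FPKM at day 3, where KO had 90.0 FPKM. Dppa5a, a gene abundant in naive stem cells, was the most abundant of the 5, at 4856 FPKM in WT and 2558 FPKM in KO at day 3. Nearness to an average of r 0.68 (Sox2) to 0.99 (Zfp42) with its own members says only that these levels ran parallel in these libraries.

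The wider pluripotency network did not move as 1 block. Of its 21 listed genes at day 3, 4 were lower and 3 higher in KO, with a median of -0.16, so that 7 of 21 were called beside 21.2% of all genes. The lower ones were Jam2 (-1.31, adjusted p = 0.00971), Dppa5a (-0.95, adjusted p = 0.0286), the naive factor Tfcp2l1 (-0.82, adjusted p = 0.0473) and Dppa3 (-0.45, adjusted p = 0.0257). Higher were Stat3 (0.66, adjusted p = 0.0306), the Nodal co-receptor Tdgf1 (0.56, adjusted p = 0.0145) and the RNA-binding protein Lin28a (0.44, adjusted p = 0.0178). The genes called at day 6 included Dppa5a and Jam2, which were lower, and Tdgf1 and Lin28a, which were higher. At day 9 limma called 0 of the 21, and at day 0 it called only Dppa3, which had 18.2 and 12.6 FPKM in WT and 5.86 and 5.24 FPKM in the libraries labelled KO (adjusted p = 0.0193). In PRO-seq Gbx2 was higher (0.80, adjusted p = 0.0388).

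LIF signalling, which feeds Klf4 and Tbx3 among others, showed 1 lower and 2 higher of 9 genes tested at day 3, beside 11.5% of all genes lower and 9.75% higher. Pim1, a kinase gene induced by LIF, was the lower one, with 115 and 116 FPKM in WT and 41.9 and 72.3 FPKM in KO (-1.06, adjusted p = 0.0307), and it was called again at day 6 (-1.18, adjusted p = 0.00682) and day 9 (-1.04, adjusted p = 0.0162). Socs3 (0.81, adjusted p = 0.0139), a feedback inhibitor of the pathway at only 0.957 and 1.05 FPKM in WT, and Ptpn11 (0.27, adjusted p = 0.046) were higher. The receptor genes Lifr (-0.34, adjusted p = 0.0736) and Il6st (-0.49, adjusted p = 0.0594) did not pass.

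Genes of the formative and primed epiblast, the state that follows the naive one, were higher in KO embryoid bodies: 3 of 10 at day 3, 7 of 10 at day 6 and 3 of 10 at day 9, with none lower, beside 9.75%, 5.4% and 1.94% of all genes called higher on those days. At day 3 these were Pou3f1 (Oct6), with 8.61 and 8.65 FPKM in WT and 29.5 and 18.2 FPKM in KO (1.33, adjusted p = 0.0142), the DNA methyltransferase Dnmt3b, with 84.9 and 76.2 against 219 and 141 FPKM (1.12, adjusted p = 0.0186), and Sox3 (0.72, adjusted p = 0.0325). KO replicate 1, the library with the lower members, was the higher in all 3. At day 6 the largest differences were those of Fgf5 (1.03, adjusted p = 0.0123), Lef1 (0.91, adjusted p = 0.019), Pou3f1 (0.90, adjusted p = 0.00304) and Dnmt3b (0.79, adjusted p = 0.0045). Pou3f1 (1.07, adjusted p = 0.0099), Dnmt3b (0.79, adjusted p = 0.0488) and Dnmt3a (0.65, adjusted p = 0.0294) were called at day 9. In stem cells limma called 0 of 5 tested at day 0, and in PRO-seq only Sox3, which was lower (-1.43, adjusted p = 0.0278). Sox3 averaged 3.64 FPKM in WT and 0.723 FPKM in the PRO-seq libraries labelled KO. It passed the filter only through WT, so a lower outcome was built into that test.

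**Figure D5:**
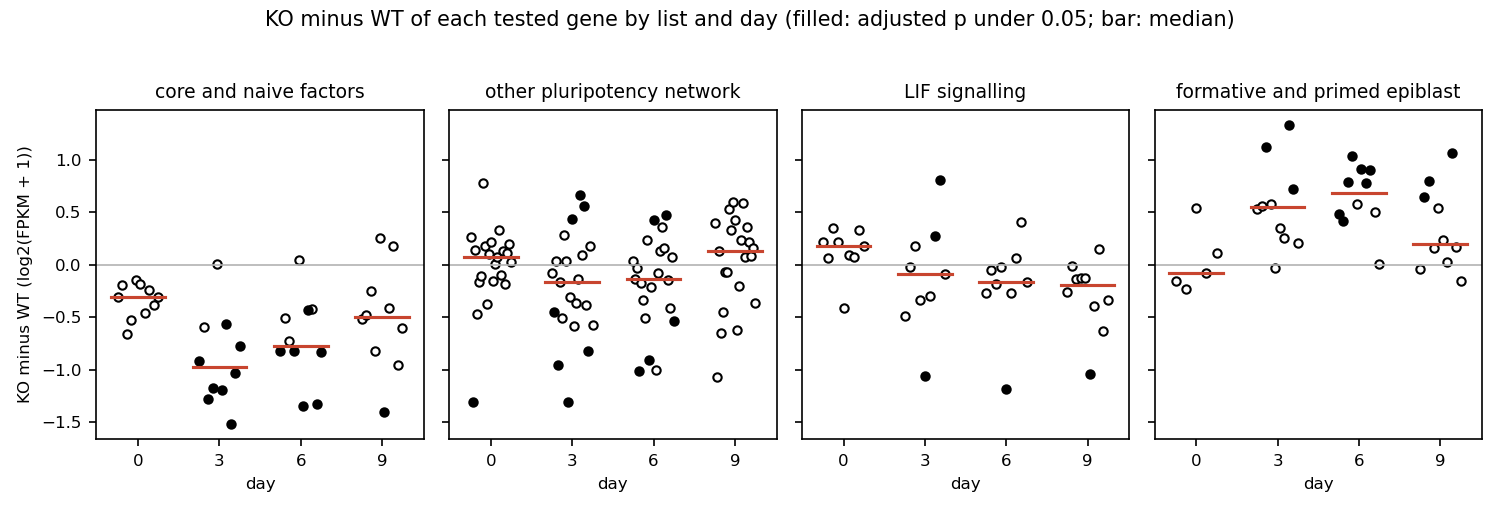
KO minus WT (log2(FPKM + 1) scale) of every tested gene of 4 lists, by day of embryoid body culture; filled points have an adjusted p under 0.05 and red bars are medians of the list. The core and naive factors have medians of -0.97 at day 3 and -0.77 at day 6, where the formative and primed epiblast genes have medians of 0.55 and 0.68.

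Markers of other cell types moved beside the members, and their part in the results was not tested. Primordial germ cell markers, some of which stem cells share, were lower for 4 of 7 tested at day 3, beside 11.5% of all genes: Dazl (-1.66, adjusted p = 0.00371), Kit (-1.59, adjusted p = 0.00578), Ddx4 (-1.29, adjusted p = 0.00728) and Tfap2c (-0.49, adjusted p = 0.0338). Their summed level at day 3 was 50.2 and 52.6 FPKM in WT and 26.6 and 29.7 FPKM in KO, with none at 0. Ddx4 was the only one called at day 0, Dazl and Ddx4 at day 6, Tfap2c, Dazl and Ddx4 at day 9, and Kit and Tfap2c in PRO-seq, all of them lower. Dazl averaged only 0.681 FPKM at day 6 and 0.712 FPKM at day 9 in KO. On those days it passed the filter only through WT, so a lower outcome was built into its tests. The share of all genes called lower was 7.92% at day 6 and 3.52% at day 9, and the share called in either direction was 3.32% at day 0 and 1.5% in PRO-seq. The endothelial list was lower through Pecam1, which stem cells also express, at day 3 (-0.80, adjusted p = 0.00896), day 6 and day 9, and through Tek at day 6, with Emcn at 0 in both genotypes at day 3; the summed level at day 3 was 33.1 and 31 FPKM in WT and 19.3 and 20.2 FPKM in KO.

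Higher in KO at day 3 were the neural marker Nes (1.80, adjusted p = 0.00327), the fibroblast markers Dcn (1.68, adjusted p = 0.00399) and Thy1 (1.06, adjusted p = 0.0191), and the trophoblast marker Ascl2 (0.55, adjusted p = 0.0306). These were 1 of 2 neural, 2 of 2 fibroblast and 1 of 1 trophoblast markers tested, beside 9.75% of all genes called higher. Sox1, the other neural marker tested, averaged 1.34 FPKM in WT and 2.3 FPKM in KO and was not called (0.50, adjusted p = 0.0814). The rest of these lists was nearly silent: 6 of 8 neural markers averaged under 1 FPKM in KO, and Neurog2 was among those at 0 in WT. The summed neural level at day 3 was 4.12 and 4.86 FPKM in WT and 14.9 and 12.9 FPKM in KO, and the fibroblast sum was 4.23 and 4.65 against 16.7 and 12.7 FPKM. Visceral endoderm markers summed to 0.706 and 0.638 FPKM in WT and 5.24 and 2.49 FPKM in KO at day 3, and to 0.264 and 0.494 against 26.2 and 6.13 FPKM at day 6, with Ttr and Apoa4 at 0 in WT. Cubn was called higher at day 6, and Cubn and Afp at day 9. Afp was at 0.0317 and 0.0146 FPKM in WT and 4.01 and 2.08 FPKM in KO. Of the 4 visceral endoderm markers tested at day 9, Gata6 (0.28) and Sox17 (-0.22) were not called. Cubn and Afp averaged under 1 FPKM in WT and passed the filter only through their KO libraries. A higher outcome was thus built into these tests. The trophoblast sum at day 3 was 2.15 and 1.93 FPKM in WT and 4.56 and 3.47 FPKM in KO, with none at 0. At day 9 Ascl2 was again higher (0.88, adjusted p = 0.0353). Of 4 trophoblast markers tested then, Hand1 (-0.61), Gata3 (0.15) and Krt7 (0.11) were not called. Ascl2 averaged 0.988 FPKM at day 3 and 0.813 FPKM at day 9 in WT, so it too passed the filter only through KO. Of 7 housekeeping genes, Ywhaz was called higher at day 3 (0.27, adjusted p = 0.0298) and the list's median was 0.16. Of 56 list calls (up to 4 for each list and comparison), 38 were lost without WT replicate 1, 44 without WT replicate 2 and 43 with no filter on low values, and none changed sign.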

How the data were processed

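RNA-seq and PRO-seq FPKM tables were deposited by the authors. The tools named for RNA, per the submitters' processing notes, were TopHat and DESeq2 with mm9, and for PRO-seq cutadapt 1.14, Trimmomatic 0.33, Bowtie 1.1.2 and DESeq2 with mm9 and dm3, the build of the Drosophila spike-in named in the labels' protocols. The counter, annotation, strand setting and treatment of multiply mapped reads were not given in the sources used here. Each FPKM value was a whole number of reads times a step (100% whole within 0.01), which gave the depths and, through limma's voom, a test on reads.

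Within each table, 2 KO and 2 WT libraries were compared on the log2 scale (pseudocount 1) over genes averaging 1 FPKM or more, with limma 3.58.1 (R 4.3.3, trended prior, 2-sided) and Benjamini-Hochberg adjustment over all genes tested; a call is an adjusted p under 0.05. Fold changes on this scale understate those of low genes. All 10 members passed the filter in all 5 tables. Effects were compared between days in 1 model of 16 libraries. The fits were checked on simulated data. Separate cultures for the replicates are not stated in the labels; p-values then cover the spread among these libraries, which may be technical. Text named all members, the 5 genes nearest by r and, per list and comparison, up to 4 called genes, which made the 56 list calls. Beyond these it named Dppa3, Tdgf1 and Lin28a at day 3 and Lin28a at day 6, which the 56 leave out. Members and lists were chosen with earlier results of these data known, and so were the tests. Chromatin peak lists were not used here, and some called or silent list genes are not reported here by name. Python 3.11.15 with pandas 2.3.3 made the tables. No column lacked a sample. Promoters came from RefSeq (GRCm38.p6) and gave no coordinates for mm9.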

Additional observations from a re-analysis of the deposited data

How the results depend on the processing

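With 2 libraries a group, the tests rest on few degrees of freedom, and a p that misses the threshold does not show that values were alike. The lowest member count behind a value was 265 reads. Counting error was not set against the replicate spread gene by gene. Some pairs lay close together, such as Klf4 in KO at day 6, with 499 and 479 reads (5 and 5.15 FPKM).

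Across settings the called members moved as follows. At day 3, 8 were called with a pseudocount of 0.1, with equal total FPKM, by voom and with the spread pooled over the 16 RNA libraries, 7 with a filter at 5 FPKM and 0 with no filter; leaving out 1 library gave 0 to 9. At day 6 no filter gave 0, and leaving out 1 library 0 to 8. Day 9 gave 0 with no filter, 5 with equal total FPKM and 3 with the pooled spread (Nanog, Prdm14 and Tcl1), and 0 to 7 with 1 library left out. Day 0 gave 0 to 2 with 1 library left out, and PRO-seq 2 by voom. The cause of these moves was not tested.

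The replicate numbers are shared by WT and KO in the labels, and deviations of same-numbered libraries correlated across genes (r = 0.57 at day 0, 0.36, 0.25 and 0.31 at days 3, 6 and 9, and 0.36 in PRO-seq). With only 2 pairs this does not show that the numbers pair the samples. With the replicate block, calls were 2 at day 0 (Sox2 and Klf4), 9 at day 3, 8 at day 6, 5 at day 9 (Nanog, Klf2, Zfp42, Prdm14 and Tcl1) and 5 in PRO-seq (Sox2, Nanog, Klf4, Tbx3 and Prdm14); between days it called 2 members for day 3 against day 0 (Nanog and Tbx3) and 1 for day 6 against day 0 (Tcl1).

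Signs turned as follows. With equal total FPKM, Pou5f1 at day 3 was -0.00694. With 1 library left out, Pou5f1 ranged from -0.31 to 0.014 at day 0, from -0.038 to 0.057 at day 3, from -0.022 to 0.11 at day 6 and from -0.14 to 0.072 in PRO-seq. At day 0 Klf2 ranged from -0.46 to 0.085, Tbx3 from -0.87 to 0.39 and Kmt2b from -0.29 to 0.0049. At day 9 Klf4 ranged from -0.63 to 0.13 and Tbx3 from -0.12 to 0.47. For day 3 against day 0 Pou5f1 ranged from -0.0045 to 0.32 and Sox2 from -0.26 to 0.054.

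All genes called numbered 376, 2356, 1490 and 623 at days 0, 3, 6 and 9 and 218 in PRO-seq. With no filter they were 0, 959, 333, 0 and 0, with a filter at 5 FPKM 72, 1425, 894, 346 and 68, and with the replicate block 2007, 3667, 2537, 1398 and 1290. The pooled spread gave 1068 at day 0 and 1765 at day 9, and voom 850 in PRO-seq. Leaving out 1 library gave 0 to 526, 134 to 3077, 118 to 2645, 154 to 1120 and 0 to 31. For day 3 against day 0, equal total FPKM moved 95 lower and 57 higher calls to 102 and 34, and for day 9 against day 0, 136 and 92 to 150 and 39.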
